A study of Homo sapiens with 12 samples.

Results

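The proteasome genes described here were the protein-coding genes named PSMA, PSMB, PSMC, PSMD, PSME, PSMF or PSMG followed by a number, with a mean of at least 20 normalized counts over all 12 libraries. Of 47 such symbols, 46 passed, among 22148 genes in all and 12939 genes with the same minimum mean. The testis subunit gene PSMA8 was not analysed here, and PSMB11, a subunit gene of the thymus, was left out with normalized counts of 0 or 1 in every library. The nearest gene inside the limit was PSMB9, with a mean of 89.25. The libraries came from HepG2, a human liver cancer cell line, transfected 48 h earlier with siRNA against CPSF6 (si-CPSF6) or with the control si-NC. Cells of both arms then received actinomycin D at 5 µg/ml and were harvested at 0, 3 and 6 h, with 2 biological replicates in each of the 6 groups. The 0 h libraries of each arm are its baseline. The study's title names RNA stability after CPSF6 silencing as its subject. How many siRNAs against CPSF6 were used, and their sequences, is not given in the sources used here, and no rescue was among the samples.

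The proteasome degrades proteins that carry ubiquitin chains. Its core, the 20S particle, stacks alpha rings (PSMA genes) on beta rings (PSMB genes), and 3 beta subunits hold the cutting sites. A 19S cap with an ATPase ring (PSMC genes), scaffold subunits and a lid (PSMD genes) recognises, unfolds and feeds in the substrate. Other caps (PSME genes), an inhibitor (PSMF1) and dedicated assembly chaperones (PSMG genes and a few PSMD genes) complete the family. The transcription factor NFE2L1 is known to raise subunit genes together when the proteasome is short, through antioxidant response elements in their promoters. CPSF6 belongs to cleavage factor I, which binds UGUA in the nascent RNA and favours distal over proximal poly(A) sites. Actinomycin D blocks transcription, so that what is left afterwards depends on decay.

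Because cleavage factor I reads UGUA, the ends of the subunit mRNAs were searched for TGTA, the same letters in DNA, on the transcript strand. The last 100 bases of the principal transcript (GENCODE release 29, hg38) held it in 22 of 38 proteasome genes (57.9%) and in 6085 of 11070 genes of all those tested (55.0%). The windows below belong to genes on which later results turn. Capitals mark the TGTA nearest to the transcript's end; a further one may stand in lower case. Each lies within the annotated 3′ UTR and is printed 5′ to 3′.
PSMD11, chr17:32483224-32483253, plus strand: aaaagaaaaggagTGTAaaatatgtcaata
PSMD5, chr9:120816067-120816096, minus strand: attgaataaaattTGTAaatcattattttc
PSMG2, chr18:12725699-12725728, plus strand: caaatgtaaatttTGTAcaataaaatttta
PSMD4, chr1:151267410-151267439, plus strand: gatgtgtgttatcTGTAaccattacagcct
PSMA5, chr1:109399031-109399048, minus strand: tacttgctttgagTGTAa
PSME4, chr2:53864091-53864120, minus strand: ctgatttcagttgTGTAactagtttaaaac
PSMD12, PSMF1 and PSMB5, which also appear below, had no TGTA in this window.

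The promoters, 250 bases before to 50 bases after each start (RefSeq, GRCh38.p14), were searched on both strands for the core of the antioxidant response element, TGACNNNGC. Of the proteasome genes 40 had a promoter in the table, and 15 of those held the core. Counted by promoter, 15 of 49 held it (30.6%), against 4687 of 35116 promoters of all genes (13.3%). The latter include genes not tested in these cells, so the shares come from unlike sets and were not tested against each other. The examples show the match in capitals on the strand on which it reads.
PSMD3, chr17:39980760-39980788, plus strand: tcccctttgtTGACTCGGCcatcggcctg
PSMD12, chr17:67366724-67366752, minus strand: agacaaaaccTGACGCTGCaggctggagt
PSME1, chr14:24136098-24136126, plus strand: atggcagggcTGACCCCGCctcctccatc
PSMD5, chr9:120843038-120843066, minus strand: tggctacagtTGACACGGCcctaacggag
PSMG2, chr18:12658689-12658717, plus strand: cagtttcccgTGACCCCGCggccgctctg
A match describes these letters and does not show a bound site. Of the 15 genes with a match, 4 were higher in si-CPSF6 than in si-NC cells averaged over times in the test given below (PSMD3, PSMD5, PSMD12 and PSME4), 5 were lower (PSMC5, PSMD9, PSME2, PSMG1 and PSMG2) and 6 did not pass. Of all genes tested 34.4% were higher and 35.4% lower, so neither count exceeded the background.

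Total normalized counts ran from 19133288 to 33352246 per library, and the ERCC spike-in RNA took 1.125% to 1.429% of them. Replicates correlated at r = 0.9911 to 0.9931 across genes. The knockdown showed in the targeted gene: CPSF6 had 768 and 718 normalized counts at 0 h in si-CPSF6 cells, against 2147 and 2082 in si-NC cells, and was lower at every time (log2 difference averaged over times -1.95, SE 0.050, limma adjusted p = 2.8e-13). All 9 liver-line markers were present, ALB among them at 4060 to 5424 TPM, the length-corrected share of transcripts. Among markers of other cells, PTPRC, CD3E and DCN were not analysed here, VWF reached at most 0.024 TPM, COL1A1 0.874 and PECAM1 1.125, whereas LYZ stood at 244 to 494 TPM in si-CPSF6 cells and 365 to 956 TPM in si-NC cells; its part in the results was not tested. In bulk RNA, fewer cells of a type and less RNA per cell cannot be told apart.

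Before actinomycin D, transcript levels per length spread widely within the family. TPM was used for this comparison between genes, since it divides by length. The catalytic subunit gene PSMB5, with the chymotrypsin-like site, was the highest, at 697.2 and 697.5 TPM in si-CPSF6 cells and 609.7 and 623.6 TPM in si-NC cells. PSMA6 followed at 429.9 and 458.2 TPM in si-CPSF6 cells and 494.2 and 519.4 TPM in si-NC cells, and its range over the 4 libraries overlapped those of PSMB3 and PSMA7. The immune subunit gene PSMB9 was the lowest, at 4.8 and 5.1 TPM in si-CPSF6 cells and 4.0 and 4.7 TPM in si-NC cells. PSMB9 replaces PSMB6 in the immunoproteasome, and PSMB6 stood at 180.4 and 174.1 TPM in si-CPSF6 cells and 218.8 and 230.0 TPM in si-NC cells. By role, the alpha ring had a median of 179.9 TPM in si-CPSF6 cells and 201.7 TPM in si-NC cells, and the beta ring 265.1 TPM in si-CPSF6 cells and 275.7 TPM in si-NC cells. The 19S ATPases had medians of 116.5 TPM in si-CPSF6 cells and 103.3 TPM in si-NC cells, and the lid 93.8 TPM in si-CPSF6 cells and 76.9 TPM in si-NC cells. Assembly chaperones of the core were lower still, at a median of 37.6 TPM in si-CPSF6 cells and 47.0 TPM in si-NC cells. Core subunits are present in equal number in the particle, while their transcripts ranged over an order of magnitude. All members together made up 0.667% to 0.705% of a library's TPM at 0 h, and 0.61% to 0.743% over the libraries of all times.

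**Figure D1:**
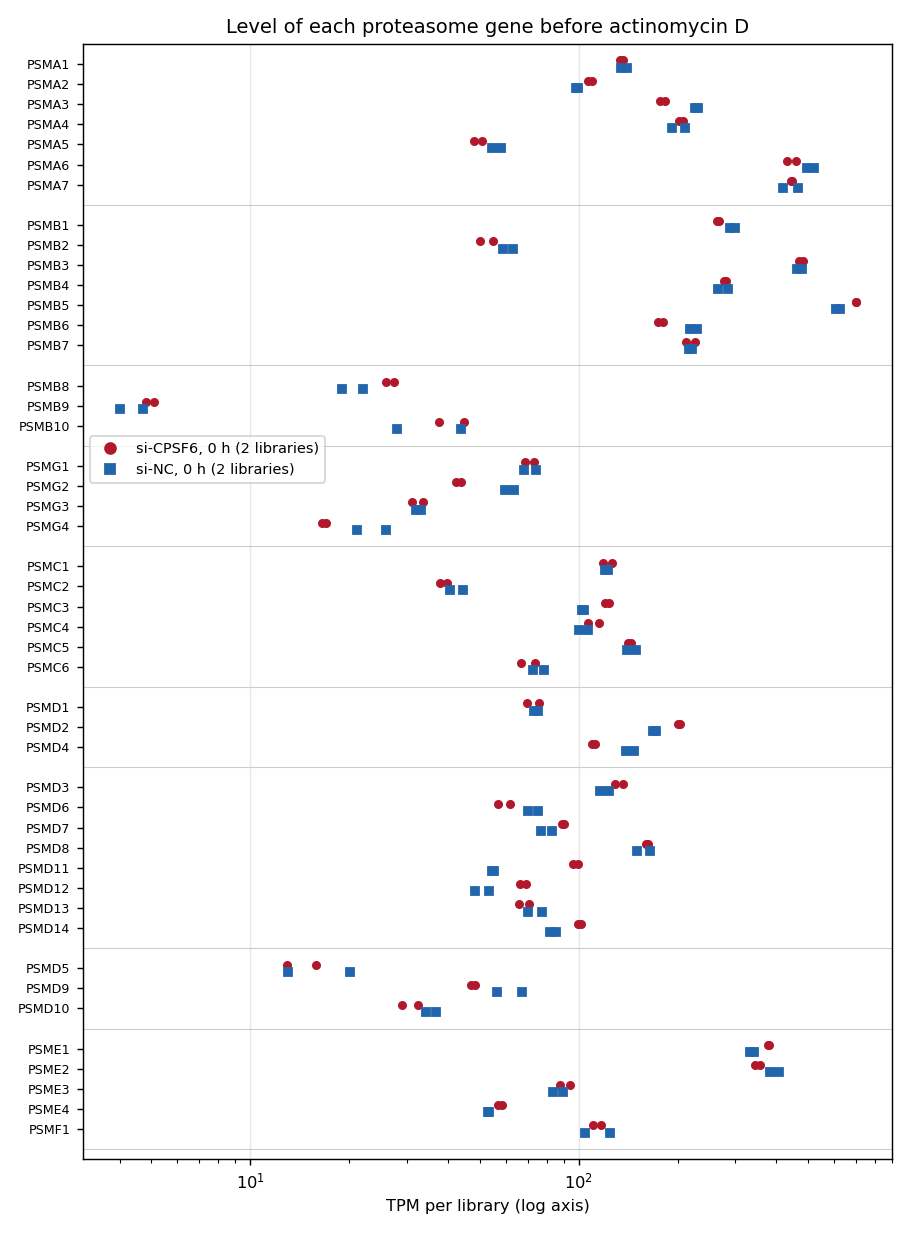
TPM of each proteasome gene at 0 h on a log axis, grouped by role from the alpha ring at the top to the other caps and the inhibitor at the bottom; each point is a library, circles si-CPSF6 and squares si-NC. PSMB5 stands at the top end near 697.2 TPM in si-CPSF6 cells, and the immune subunit gene PSMB9 at the low end near 4.8 TPM.

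At 0 h 12 proteasome genes were called different between the arms. In limma, a linear model that shares the estimate of the spread between genes, on log2(normalized count + 1), with Benjamini-Hochberg adjustment over all 12939 genes tested, 8 members were higher and 4 lower in si-CPSF6 than in si-NC cells, and 34 did not pass an adjusted p of 0.05. The members' called share was 26.1%, while 42.9% of all genes passed (21.8% higher, 21.1% lower). Their median log2 difference was 0.055, against 0.002 over all genes tested. The genes that were higher were PSMD11, PSMB8, PSMD14, PSMC3, PSMB5, PSMD2, PSME1 and PSMD3, with log2 differences of 0.19 to 0.52; the lower ones were PSMG2, PSMD4, PSMB6 and PSMA3, at -0.44 to -0.21. With the replicate number as a block, 12 members were higher and 8 lower (25.9% and 24.7% of all genes). Fitted on only the 0 h groups, 11 were higher and 6 lower (25.9% and 24.9% of all genes). With scaling to the spike-ins 0 were higher and 3 lower (PSMG2, PSMD4 and PSMB6; 8.93% of all genes higher, 19.7% lower), by TPM 5 were higher and 6 lower (17.5% and 15.2% of all genes), and with median-ratio scaling 10 and 3 (25.0% and 18.6%). Fewer members were called without replicate 1 or replicate 2 of si-CPSF6 at 0 h. Their median was then 0.064 and 0.072, against 0.002 and 0.011 over all genes.

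Later the balance turned toward lower transcripts. At 3 h 9 members were higher and 17 lower (background 55.3%, of which 26.2% higher and 29.1% lower), with a median of -0.114 against -0.028 over all genes. At 6 h 4 were higher and 26 lower (background 55.7%, of which 27.0% higher and 28.6% lower), with a median of -0.23 against -0.025. The lower calls at 6 h thus took 56.5% of the members. Fitted on only the 6 h groups, 4 were higher and 22 lower (23.4% and 25.2% of all genes). Scaled to the spike-ins, 2 members were higher and 14 lower at 6 h (19.4% and 21.6% of all genes), and 2 were higher and 3 lower at 3 h (20.6% and 18.4%). The members' median stood 0.207 below that of all genes at 6 h with either scaling, a distance that a factor per library cannot change. In TPM it stood 0.257 below. Averaged over the 3 times, 9 were higher and 22 lower (background 69.8%, of which 34.4% higher and 35.4% lower). Scaled to the spike-ins, 3 were higher on average, PSMD5, PSMD11 and PSMD7, and 19 lower (background 59.1%, of which 26.0% higher and 33.1% lower). The plot of differences by time shows most genes further to the left at 6 h than at 0 h, and PSMD5 further to the right.

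**Figure D2:**
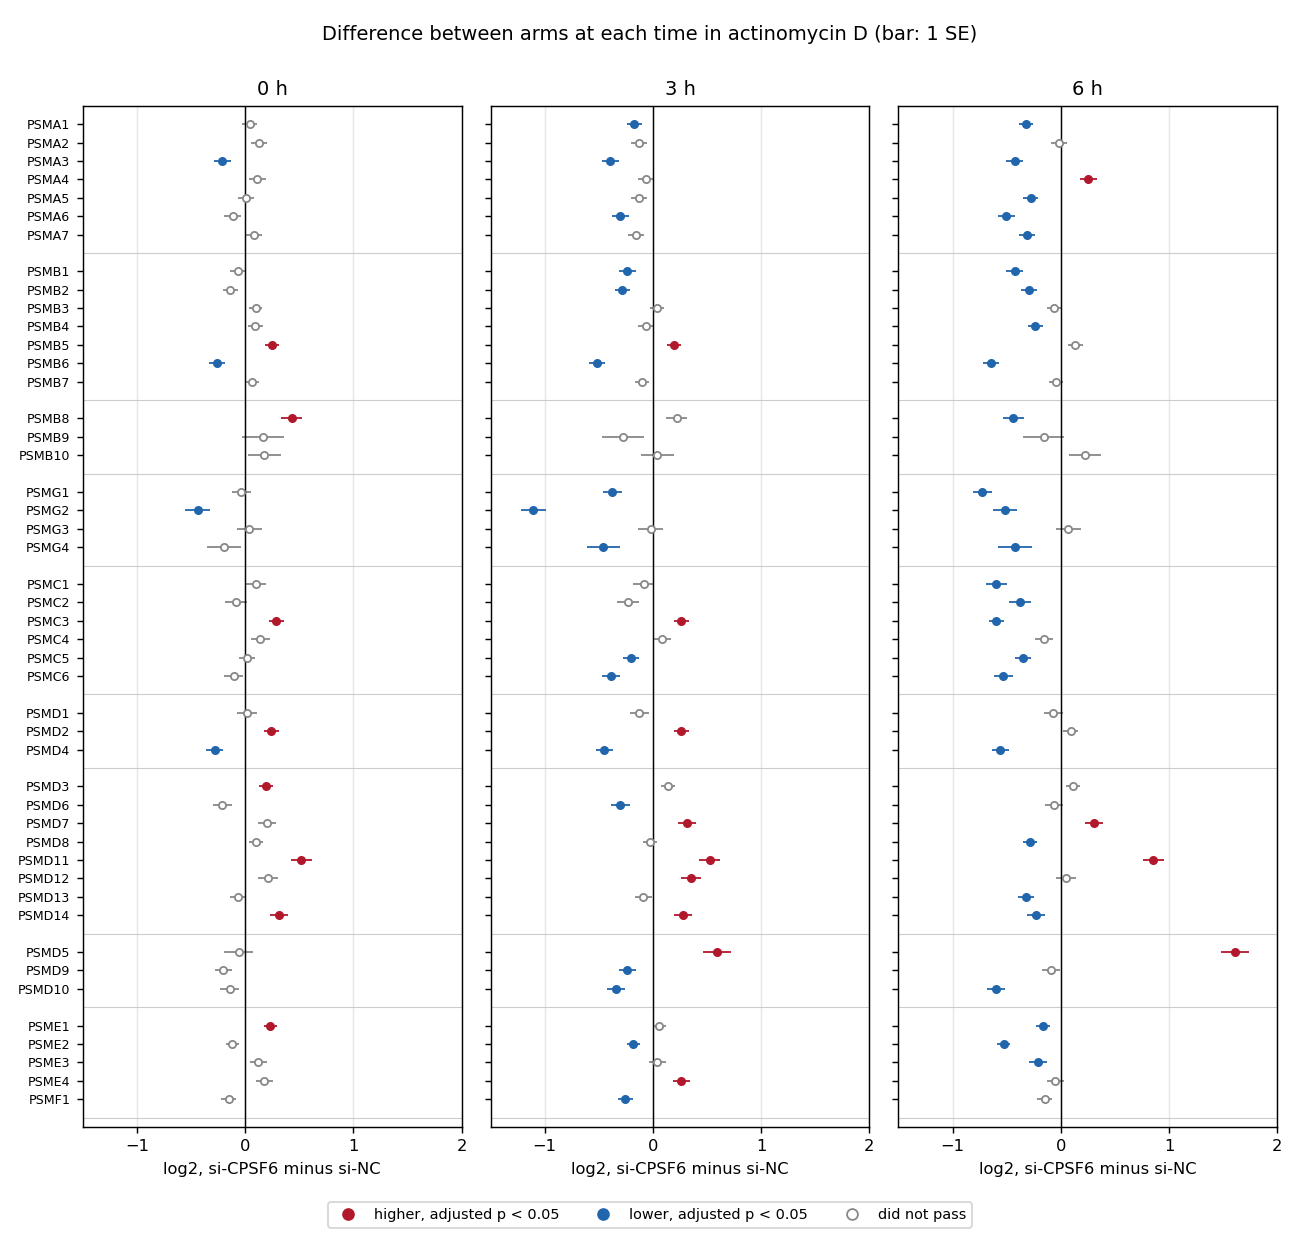
Log2 difference in normalized counts, si-CPSF6 minus si-NC, for each proteasome gene at 0, 3 and 6 h in actinomycin D, with bars of 1 SE from the limma fit; filled points passed an adjusted p of 0.05. At 0 h 12 points are filled, at 6 h 30, of which 26 lie below 0.

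Measured by overlap alone, 22 members had both si-CPSF6 libraries above both si-NC libraries at 0 h (37.9% of all genes tested did) and 15 had them below (37.4%). At 3 h 12 members were above (36.8% of all genes) and 24 below (41.2%). At 6 h 7 members were above (36.0% of all genes) and 30 below (38.9%). At every time, 4 stayed above, PSMB5, PSMD11, PSMD3 and PSMD7 (21.1% of all genes tested), and 14 stayed below (22.7%). Those 14 were PSMA3, PSMA6, PSMB1, PSMB2, PSMB6, PSMC6, PSMD4, PSMD9, PSMD10, PSME2, PSMF1, PSMG1, PSMG2 and PSMG4. They include genes of every role except the lid and the immune subunits.

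Among the alpha ring genes, which form the gated entrance of the core, 5 of 7 were lower averaged over times and 0 higher, where 35.4% of all genes were lower. With spike-in scaling 3 of the 7 were lower, and the calls of PSMA5 and PSMA7 were lost (adjusted p = 0.08 and 0.075). PSMA3 had 2057 and 1929 normalized counts at 0 h, 2358 and 2628 at 3 h and 2353 and 2533 at 6 h in si-CPSF6 cells, against 2299 and 2308, 3244 and 3295, and 3146 and 3425 in si-NC cells at those times. Its si-CPSF6 libraries lay below its si-NC libraries throughout, and the averaged log2 difference was -0.34 (SE 0.043, adjusted p = 3.9e-06). PSMA6 averaged -0.31 (SE 0.046, adjusted p = 2.5e-05). PSMA4 went the other way at 6 h, at 0.25 (SE 0.078, adjusted p = 0.012), a call lost with spike-in scaling, and its averaged difference of 0.10 did not pass (adjusted p = 0.059). That average passed with the replicate number as a block (adjusted p = 0.023) and with median-ratio scaling (0.137, adjusted p = 0.014). PSMA2 did not pass at any time.

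In the beta ring the 3 catalytic genes differed among themselves. PSMB6, which carries the caspase-like site, had 1840 and 1724 normalized counts at 0 h, 2551 and 2662 at 3 h and 2767 and 3188 at 6 h in si-CPSF6 cells, against 2115 and 2155, 3686 and 3761, and 4593 and 4680 in si-NC cells. The arms did not overlap at any time, and the averaged difference was -0.47 (SE 0.042, adjusted p = 1e-07). PSMB5 had 10097 and 9813 normalized counts at 0 h, 14218 and 15574 at 3 h and 17370 and 18959 at 6 h in si-CPSF6 cells, against 8409 and 8364, 13029 and 13002, and 16478 and 16571 in si-NC cells. It was above si-NC at each time, by 0.19 on average (SE 0.038, adjusted p = 0.00036), though not past the threshold at 6 h (0.135, adjusted p = 0.095; 0.033 with the replicate number as a block) nor, with spike-in scaling, on average. PSMB7, with the trypsin-like site, averaged -0.027 (SE 0.036, adjusted p = 0.52), with a 6 h difference of -0.044. Of the structural beta genes, PSMB1 and PSMB2 were lower on average, by -0.24 each, while PSMB3 and PSMB4 did not pass.

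The immune subunits replace the catalytic ones after interferon. PSMB8, the counterpart of PSMB5, had 439 and 453 normalized counts at 0 h, 548 and 580 at 3 h and 505 and 495 at 6 h in si-CPSF6 cells, against 312 and 351, 474 and 495, and 686 and 670 in si-NC cells. It was above si-NC at 0 h (0.43, SE 0.095, adjusted p = 0.0021) and below it at 6 h (-0.44, SE 0.095, adjusted p = 0.0012); the 0 h call was lost with spike-in scaling. PSMB9, at 54 to 127 normalized counts in any library, and PSMB10 did not pass at any time. PSMB8 and PSMB9 lie on opposite strands and overlap each other and the RNA gene PSMB8-AS1, and the sources used here do not say whether reads were counted by strand.

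The core's assembly chaperones work as pairs, PSMG1 with PSMG2 and PSMG3 with PSMG4, and 3 of the 4 genes were lower averaged over times (35.4% of all genes were). PSMG2 had 656 and 617 normalized counts at 0 h, 394 and 436 at 3 h and 211 and 231 at 6 h in si-CPSF6 cells, against 903 and 826, 897 and 889, and 284 and 352 in si-NC cells. The arms were separate at every time, with the widest gap at 3 h (-1.11, SE 0.114, adjusted p = 1.4e-06) and narrower ones at 0 h and 6 h. Averaged over times PSMG2 stood at -0.69 (SE 0.066, adjusted p = 2e-07), the lowest of all members, and at -0.74 with spike-in scaling. PSMG1 had 1058 and 1039 normalized counts at 0 h and 706 and 801 at 6 h in si-CPSF6 cells, against 1070 and 1080 and then 1176 and 1316 in si-NC cells. The arms stood close together at 0 h (-0.036, SE 0.088, adjusted p = 0.77) and apart at 6 h (-0.73, SE 0.088, adjusted p = 5.9e-06). PSMG4 averaged -0.36 (SE 0.089, adjusted p = 0.0021), and PSMG3 did not pass at any time. PSMG2 shares its locus with SPIRE1 and CEP76 on the other strand.

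The PSMC genes encode the ATPases that unfold the substrate. Averaged over times 4 of 6 were lower and 0 higher (35.4% and 34.4% of all genes), while PSMC3 and PSMC4 did not pass. PSMC3 had 2578 and 2575 normalized counts at 0 h, 3641 and 3916 at 3 h and 3539 and 3906 at 6 h in si-CPSF6 cells, against 2157 and 2060, 3068 and 3227, and 5575 and 5662 in si-NC cells. It was thus higher at 0 h and 3 h (0.29 and 0.26, SE 0.069 each, adjusted p = 0.0034 and 0.0047) and lower at 6 h (-0.60, SE 0.069, adjusted p = 3.9e-06). With spike-in scaling the 6 h call stayed and those at 0 h and 3 h were lost. PSMC6 averaged -0.34 (SE 0.050, adjusted p = 1.8e-05), and PSMC1, which has a pseudogene in the table at a mean of 85.0 normalized counts, -0.196 (SE 0.057, adjusted p = 0.0064).

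Of the scaffold and receptor genes in the base of the cap, PSMD2 was higher and PSMD4 lower. PSMD4, a ubiquitin receptor, had 2177 and 2112 normalized counts at 0 h, 2772 and 3198 at 3 h and 2960 and 3354 at 6 h in si-CPSF6 cells, against 2572 and 2643, 4142 and 3990, and 4559 and 4733 in si-NC cells. No si-CPSF6 library reached the si-NC libraries of its time, and the averaged difference was -0.43 (SE 0.046, adjusted p = 6.2e-07). PSMD2, to which ubiquitin shuttles dock, averaged 0.197 (SE 0.040, adjusted p = 0.00047), a call lost with spike-in scaling, and the scaffold gene PSMD1 -0.059 (SE 0.053, adjusted p = 0.34).

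In the lid 5 of 8 genes were higher averaged over times, PSMD11, PSMD7, PSMD12, PSMD3 and PSMD14, and 2 were lower, PSMD6 and PSMD13, where 34.4% of all genes were higher and 35.4% lower. With spike-in scaling PSMD11 and PSMD7 were higher and PSMD6 lower (all genes 26.0% higher, 33.1% lower), and the other calls were lost. PSMD11, a subunit that clamps the cap to the core, had 3557 and 3697 normalized counts at 0 h, 4028 and 4154 at 3 h and 3580 and 3915 at 6 h in si-CPSF6 cells, against 2498 and 2561, 2774 and 2920, and 1811 and 2365 in si-NC cells. Every si-CPSF6 library exceeded every si-NC library of any time. The difference was 0.52 at 0 h (SE 0.097, adjusted p = 0.00065), 0.52 at 3 h and 0.86 at 6 h (SE 0.097, adjusted p = 4.3e-06), and averaged 0.63 as deposited (SE 0.056, adjusted p = 1.3e-07), a fold of 1.55. With spike-in scaling the average was 0.585 (adjusted p = 1.6e-06), but the 0 h difference of 0.386 did not pass (adjusted p = 0.076). In the TPM table its 0 h difference was 0.84 (SE 0.176, adjusted p = 0.0049). An antisense gene lies opposite PSMD11. PSMD14, the deubiquitinase of the lid, had 2509 and 2409 normalized counts at 0 h and 1654 and 1676 at 6 h in si-CPSF6 cells, against 1969 and 1998 and then 1782 and 2138 in si-NC cells. It was above si-NC at 0 h (0.31, SE 0.083, adjusted p = 0.0074) and below it at 6 h (-0.23, SE 0.083, adjusted p = 0.029), and neither call held with spike-in scaling. PSMD7, the partner of PSMD14, averaged 0.27 (SE 0.048, adjusted p = 0.00012).

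The 3 chaperones that assemble the base also split. PSMD5 had 710 and 868 normalized counts at 0 h, 649 and 725 at 3 h and 516 and 622 at 6 h in si-CPSF6 cells, against 734 and 914, 447 and 462, and 176 and 194 in si-NC cells. The arms overlapped at 0 h (-0.061, SE 0.132, adjusted p = 0.74) and separated in actinomycin D, by 0.59 at 3 h (SE 0.132, adjusted p = 0.0015) and 1.61 at 6 h (SE 0.132, adjusted p = 1.3e-07). The 6 h gap, a fold of 3.05, was the widest of any member at any time. PSMD10, also known as gankyrin, averaged -0.36 (SE 0.050, adjusted p = 1e-05), and PSMD9 -0.176 (SE 0.046, adjusted p = 0.003). A transcribed pseudogene, CUTALP, lies on the strand opposite PSMD5.

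Among the other caps, PSME1 and PSME2 form a single interferon-inducible activator, yet they differed at 0 h. PSME1 had 4892 and 4714 normalized counts in si-CPSF6 cells and 4090 and 4077 in si-NC cells (0.23, SE 0.062, adjusted p = 0.0068), whereas PSME2 had 3669 and 3703 in si-CPSF6 cells and 3949 and 4051 in si-NC cells (-0.118, SE 0.063, adjusted p = 0.15). Averaged over times PSME2 was lower, at -0.28 (SE 0.037, adjusted p = 6.9e-06), and PSME1 did not pass (0.043, adjusted p = 0.30). PSME4, a nuclear activator, averaged 0.129 (SE 0.045, adjusted p = 0.018), a call lost with spike-in scaling. PSMF1, named as an inhibitor, averaged -0.185 in normalized counts (SE 0.042, adjusted p = 0.001), but 0.011 in the TPM table (adjusted p = 0.92), where its sign turned. PSME2 has 2 pseudogenes in the table with means of 49.92 and 23.58 normalized counts.

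In actinomycin D, the sign of a change over time depended on the scale. On the deposited scale, on which all libraries have nearly the same upper quartile, 28 members were higher and 8 lower at 6 h than at 0 h in si-CPSF6 cells (background 77.4%, of which 49.8% higher and 27.6% lower). In si-NC cells 33 were higher and 7 lower (background 79.3%, of which 48.6% higher and 30.7% lower). Scaled to the spike-ins, the counts were 0 higher and 24 lower in si-CPSF6 cells (5.83% of all genes higher, 52.4% lower), and 4 higher and 20 lower in si-NC cells (10.2% and 57.7%). In the TPM table they were 6 higher and 25 lower in si-CPSF6 cells (14.3% and 48.5% of all genes), and 10 higher and 20 lower in si-NC cells (16.2% and 53.2%). With median-ratio scaling they were 21 higher and 13 lower in si-CPSF6 cells (37.3% and 35.4%), and 30 higher and 9 lower in si-NC cells (38.8% and 37.7%). The all-gene median moved to -0.50 in si-CPSF6 cells and -0.65 in si-NC cells with spike-in scaling, against 0.354 and 0.305 as deposited. On the deposited scale the members' median lay above that of all genes by 0.078 in si-CPSF6 cells and by 0.47 in si-NC cells. Spike-in scaling divides each library by a single factor, which moves all genes alike. Its distances of 0.073 and 0.47 are thus fixed by the arithmetic and are no separate check. In the TPM table, which also divides by length, the distances were 0.071 and 0.393. The spike-ins were added to 5 µg of total RNA, so that scaling to them gives RNA per mass of total RNA and not per cell.

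Scaled to the spike-ins, a median of 74.5% of a member's 0 h level was left at 6 h in si-CPSF6 cells and 88.3% in si-NC cells. The medians over all genes tested were 70.5% in si-CPSF6 cells and 63.7% in si-NC cells. At 3 h the members' medians were 93.7% in si-CPSF6 cells and 91.5% in si-NC cells, against 82.8% and 74.2% over all genes. The si-CPSF6 libraries at 3 h lay far apart on this scale, with spike-in shares of 1.429% and 1.128%. PSMB5, for example, had 86.8% and 122.8% left in them, against 92.8% and 99.6% in the si-NC libraries. The range at 6 h ran from 19.2% to 120% in si-CPSF6 cells and from 11.6% to 147% in si-NC cells. Members thus differed widely in the share left. Values above 100% occurred in both arms, so these shares are relative to total RNA and give no lifetimes.

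The ranges of the core and the cap overlapped. Of the 14 alpha and beta ring genes, 0 lay under 50% at 6 h in either arm, and their medians were 89.0% (67.7% to 107.6%) in si-CPSF6 cells and 92.9% (73.6% to 128.6%) in si-NC cells. Of the 17 genes of the 19S cap, 6 lay under 50% in each arm, with medians of 56.8% (26.6% to 110.2%) in si-CPSF6 cells and 67.4% (30.1% to 137.0%) in si-NC cells. These are descriptions, and the difference between core and cap was not tested. The share of all genes under 50% was not counted, so these counts do not show whether core or cap differs from other genes. Under 50% in both arms were PSMG2, PSMC6, PSMD12, PSMC2, PSMD6 and PSMD5. PSMD14, PSMG1 and PSMC1 were under it in si-CPSF6 cells, at 37.3%, 39.7% and 48.9%, where si-NC cells had 51.2%, 59.8% and 74.4%. PSMD11 and PSMD7 were under it in si-NC cells, at 42.9% and 48.0%, where si-CPSF6 cells had 57.0% and 55.1%.

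**Figure D3:**
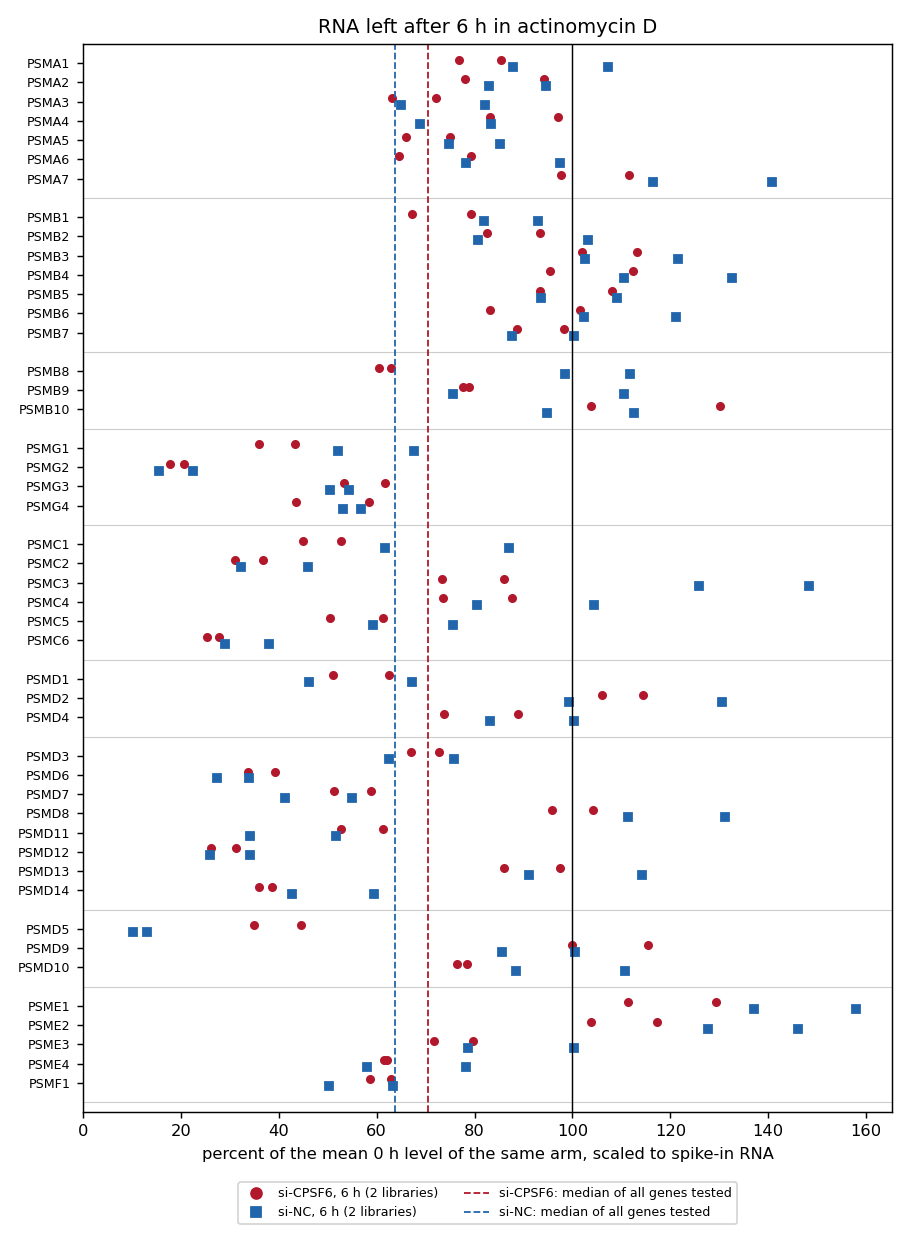
Percent of the arm's mean 0 h level left after 6 h in actinomycin D, scaled to spike-in RNA, for each proteasome gene; each point is a library, circles si-CPSF6 and squares si-NC, and the dashed lines mark the medians of all genes tested, 70.5% and 63.7%. The alpha and beta ring genes at the top lie right of 60%, while several PSMC, PSMD and PSMG genes lie left of 50%.

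The largest changes over time on the deposited scale fell on a few genes. In si-CPSF6 cells the highest log2 changes from 0 h to 6 h were those of PSME1 (1.12), PSMB10 (1.07), PSME2 (1.002) and PSMD2 (1.0), and the lowest those of PSMG2 (-1.52), PSMC6 (-1.05), PSMD12 (-0.94) and PSMC2 (-0.71). In si-NC cells the highest were PSME1 (1.52), PSME2 (1.41), PSMC3 (1.41) and PSMA7 (1.32), and the lowest PSMD5 (-2.14), PSMG2 (-1.45), PSMD12 (-0.78) and PSMD6 (-0.75). With spike-in scaling the 4 highest in si-CPSF6 cells did not pass (0.14 to 0.26), those in si-NC cells kept their sign (0.36 to 0.56, adjusted p = 0.00065 to 0.032), and all 4 lowest passed in each arm. PSMG2 had 19.2% of its 0 h level left in si-CPSF6 cells and 19.05% in si-NC cells at 6 h. At 3 h 45.7% was left in si-CPSF6 cells (37.6% and 53.8% by library) and 64.0% in si-NC cells (61.95% and 66.0%).

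Whether the change from 0 h to 6 h differed between the arms was tested as an interaction. On the deposited scale 19 members changed less upward or more downward in si-CPSF6 than in si-NC cells, and 1, PSMD5, the other way (background 24.4%, of which 12.0% higher and 12.4% lower). Lower calls thus took 41.3% of the members, and the members' median was -0.27 against -0.028 over all genes. With median-ratio scaling the counts were also 1 and 19 (background 11.5% higher, 12.9% lower). Fewer passed with the other scalings: with spike-in scaling 1 was higher and 2 lower (background 6.89% higher, 1.84% lower), and in the TPM table also 1 and 2 (background 8.47% higher, 4.38% lower). The members' median stood 0.24 below that of all genes on the deposited and spike-in scales, between which a factor per library cannot change it. In TPM it stood 0.212 below. Fewer members passed without replicate 1 of si-CPSF6 at 0 h, of si-CPSF6 at 6 h or of si-NC at 0 h. Their median was then -0.241, -0.211 and -0.23, against -0.031, -0.03 and -0.028 over all genes.

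PSMC3 and PSMB8 passed on all 3 scales. PSMC3 had an interaction of -0.89 as deposited (SE 0.098, adjusted p = 2.1e-05), -0.78 with spike-in scaling (adjusted p = 0.016) and -0.79 in TPM (adjusted p = 0.0021). For PSMC3 79.7% of the 0 h level was left at 6 h in si-CPSF6 cells and 137% in si-NC cells. PSMB8 had -0.87 as deposited (SE 0.135, adjusted p = 0.00036), -0.76 with spike-in scaling (adjusted p = 0.043) and -0.80 in TPM (adjusted p = 0.0055). Of its 0 h level 61.7% was left in si-CPSF6 cells and 105% in si-NC cells.

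PSMD5 moved the opposite way. Its interaction was 1.67 as deposited (SE 0.187, adjusted p = 2.4e-05) and 1.77 with spike-in scaling (adjusted p = 7.2e-06). In TPM the estimate was 1.80 with a larger error (SE 0.621, adjusted p = 0.094). At 3 h 60.9% and at 6 h 39.7% of its 0 h level was left in si-CPSF6 cells, against 34.3% and 11.6% in si-NC cells. By library the 3 h values were 49.8% and 71.9% in si-CPSF6 cells, and 32.5% and 36.1% in si-NC cells. The higher TPM call was PSMD9 (0.485, adjusted p = 0.047), which did not pass in normalized counts (0.11, adjusted p = 0.52).

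The remaining 17 lower interactions spanned most roles. They were PSMC1 (-0.69), PSMG1 (-0.69), PSMD14 (-0.54), PSMD10 (-0.455), PSMC6 (-0.43), PSME2 (-0.41), PSME1, PSMA7, PSMA6, PSMB6, PSMD8, PSMC5, PSMA1, PSMB1, PSME3, PSMB4 and PSMA5 (-0.40 to -0.29), and none passed with spike-in scaling. Over the 12 fits that leave out a library each, PSMB8, PSMC1, PSMC3, PSMD14, PSMD5, PSMD8, PSME1, PSME2 and PSMG1 passed in all. PSMD11 had 0.335 (adjusted p = 0.091), and passed with the replicate number as a block (adjusted p = 0.014).

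**Figure D4:**
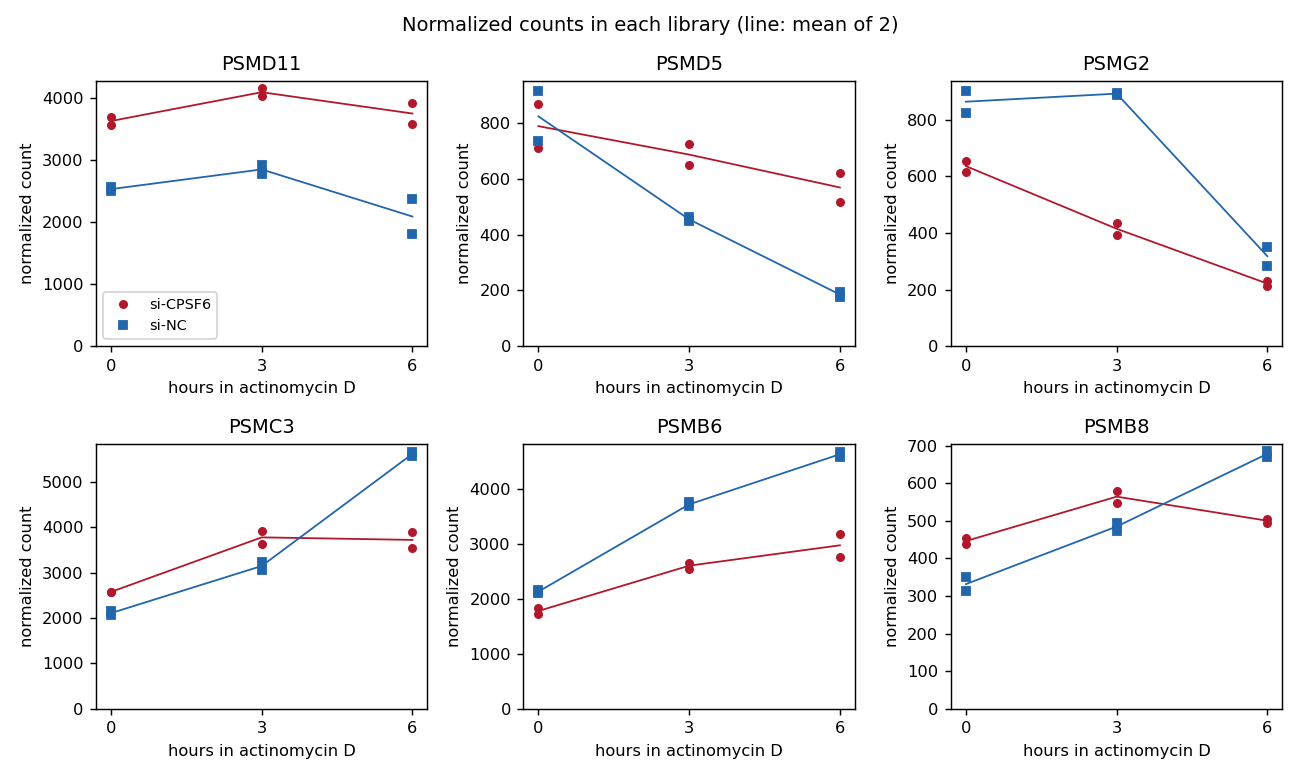
Normalized counts of 6 proteasome genes in every library against hours in actinomycin D, circles si-CPSF6 and squares si-NC, with lines through the means of 2. At 6 h PSMD5 stands at 516 and 622 counts in si-CPSF6 cells and 176 and 194 in si-NC cells, while PSMC3 and PSMB8 cross from above si-NC to below it.

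The ratio of a gene's normalized count to its TPM follows the length of the isoforms that the quantification assigned to it, on a log2 scale. Compared between the arms, it asks whether a gene's apparent transcript length changed. As first centred, on the library median, all genes shifted together: at 0 h 28 members were longer and 0 shorter (background 36.3%, of which 30.5% longer and 5.75% shorter), and averaged over times 33 were longer and 2 shorter (background 50.2%, of which 40.8% longer and 9.35% shorter), and the members' median of 0.069 equalled that of all genes. A second centring, on the median difference from each gene's own mean, was chosen after this was seen, and left 3 members longer and 3 shorter averaged over times (3.44% of all genes longer, 10.8% shorter). Longer were PSMA5 (0.124, SE 0.029, adjusted p = 0.037), PSME4 (0.096, SE 0.024, adjusted p = 0.044) and PSMB5 (0.016, SE 0.004, adjusted p = 0.048). Shorter were PSMD11 (-0.28, SE 0.067, adjusted p = 0.038), PSMD12 (-0.21, SE 0.040, adjusted p = 0.018) and PSMF1 (-0.174, SE 0.043, adjusted p = 0.043). In the window at the transcript's end searched above, PSMD11, PSMA5 and PSME4 had a TGTA, and PSMD12, PSMF1 and PSMB5 had none. As deviations from its mean over the 12 libraries after the second centring, the values of PSMD11 at 0 h were -0.157 and -0.113 in si-CPSF6 cells, against 0.18 and 0.278 in si-NC cells. At 6 h they were 0.133 and -0.245 in si-CPSF6 cells, against 0.164 and 0.162 in si-NC cells. Within each time the arms did not overlap, but the si-CPSF6 replicates were far apart at 6 h. The 0 h difference of -0.36 did not pass by itself (adjusted p = 0.12). For PSME4 the arms overlapped at 0 h and at 3 h, and the 0 h difference was 0.018 (adjusted p = 0.9). They were separate at 6 h, at 0.049 and -0.012 in si-CPSF6 cells, against -0.181 and -0.227 in si-NC cells. These 6 genes are named because they passed, and poly(A) sites themselves were not measured.

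The genes around the proteasome moved in several ways. They were fitted on the deposited scale only, and their calls were not checked with the other scalings. In the NFE2L1 circuit 5 of 13 genes were higher and 3 lower averaged over times, where 34.4% of all genes were higher and 35.4% lower. NFE2L1 had 4853 and 4904 normalized counts at 0 h, 7976 and 7382 at 3 h and 11181 and 9601 at 6 h in si-CPSF6 cells, against 2868 and 2477, 3773 and 3388, and 9541 and 8455 in si-NC cells. Its arms were apart at every time, with a difference of 0.87 at 0 h (SE 0.093, adjusted p = 5.3e-06) and 0.21 at 6 h (SE 0.093, adjusted p = 0.073). NFE2L2, its relative in the oxidative stress response, averaged 0.78 (SE 0.049, adjusted p = 2e-09), and DDI2, the protease that activates NFE2L1, 0.515 (SE 0.053, adjusted p = 4.5e-07). BTRC, part of a ubiquitin ligase for NFE2L1, averaged -0.58 (SE 0.079, adjusted p = 9.2e-06).

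Of 12 proteasome partners, 3 were higher and 5 lower averaged over times, and for this list and those that follow the shares of all genes were again 34.4% and 35.4%. The lower ones included UCHL5, a deubiquitinase that docks on the cap (-0.53, SE 0.050, adjusted p = 1.8e-07), PAAF1, a factor that restrains cap assembly (-0.55, SE 0.060, adjusted p = 8e-07), and ZFAND5 (-0.445, SE 0.063, adjusted p = 1.4e-05). UBE3C, a ubiquitin ligase that works on the proteasome, was higher (0.24, SE 0.041, adjusted p = 7.2e-05). Among 14 genes of ubiquitin supply and delivery 2 were higher, the ubiquitin gene UBB (0.405) among them, and 9 lower, NPLOC4 (-0.43) and UBQLN1 (-0.33) among them. Of 8 antigen presentation genes 4 were higher and 2 lower. The peptide transporter genes TAP1 and TAP2, next to PSMB8 and PSMB9 on chromosome 6, averaged 0.71 (SE 0.044, adjusted p = 1.8e-09) and 0.69 (SE 0.054, adjusted p = 2.5e-08), and ERAP1, which trims the peptides, 0.63. None of the immune subunit genes passed on average.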

How the data were processed

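RNA of 12 HepG2 libraries was sequenced. Per the submitters' processing notes STAR and RSEM were used with build hg38; the sources used here give no versions, annotation or strand setting. The authors' deposited normalized counts are a score: whole numbers that, from the values, have nearly the same upper quartile in every library (660.5 or 661) and so are not raw counts, and no test for raw counts was run. The authors' deposited TPM sum to 1000000 per library. Genes reaching a mean of 20 were fitted with limma 3.58.1 (R 4.3.3, trend and robust) on log2(normalized count + 1), with 6 group means, Benjamini-Hochberg adjustment over 12939 genes and a threshold of 0.05; the fit was tested on simulated data. Every proteasome gene could be named; over time, the 4 highest and 4 lowest called per arm; of partner lists, up to 4 called genes each and NFE2L1.

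The members and lists were chosen with earlier results of these data known. Same-numbered replicates deviated together (15 correlations of 0.108 to 0.236) and were taken as paired in the alternative with a replicate block. No pair of libraries was a duplicate. With 2 replicates per group, p-values rest on a spread shared by all groups. That spread was not equal. The squared difference between replicates over their sum averaged 6.21 at 0 h and 12.8 at 6 h in si-CPSF6 cells. In si-NC cells it averaged 6.7 and 17.72. Sharing can thus make calls too few at 0 h and too many at 6 h. Alternatives were applied to the members and not to the partner lists. They were other pseudocounts, filters, scalings (median ratio, spike-in), the TPM table and limma without trend and robust. The rest were the block, only the groups compared, and leaving out each library. Of the members 28 overlap another annotated gene, and counts there are uncertain. Some genes of the partner and marker lists are not reported here.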

Additional observations from a re-analysis of the deposited data

Results flagged for a closer look

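The change from 0 h to 6 h in actinomycin D differed between the si-CPSF6 and si-NC arms for 20 proteasome genes by the test of the interaction (limma, adjusted p up to 0.048, 24.4% of all genes tested). PSMD5 was the exception in direction, at 1.672 on the log2 scale. In the core, the values were -0.364 for PSMA1, -0.286 for PSMA5, -0.39 for PSMA6, -0.398 for PSMA7, -0.362 for PSMB1, -0.329 for PSMB4, -0.381 for PSMB6 and -0.868 for PSMB8. The ATPase genes gave -0.692 for PSMC1, -0.885 for PSMC3, -0.372 for PSMC5 and -0.426 for PSMC6. The lid genes PSMD8 and PSMD14 gave -0.378 and -0.539, and the base chaperone gene PSMD10 -0.455. The activator genes PSME1, PSME2 and PSME3 gave -0.398, -0.412 and -0.334, and the core chaperone gene PSMG1 -0.689. PSMC3, PSMB8 and PSMD5 also passed with spike-in scaling, and the other 17 did not.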

How the results depend on the processing

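With spike-in scaling the members called were 3 at 0 h (28.6% of all genes), 5 at 3 h (39.0%) and 16 at 6 h (41.0%). They were 24 for the change over 6 h in si-NC cells (68.0%) and 3 for the interaction (8.73%). The members' median log2 values were -0.079 at 0 h, -0.127 averaged over times and -0.164 for the interaction. Over 6 h they were -0.428 in si-CPSF6 cells and -0.185 in si-NC cells. The TPM table called 17 at 3 h (44.5% of all genes) and 3 for the interaction (12.8%). Its medians were -0.299 and -0.106 over 6 h in si-CPSF6 and si-NC cells and -0.148 for the interaction. With median-ratio scaling the medians over 6 h were 0.15 in si-CPSF6 and 0.505 in si-NC cells. Without trend and robust settings 12 interactions of members passed (19.2% of all genes). In a paired fit with the replicate block 20 members passed at 0 h (50.6% of all genes), and no other count moved by over 1.5 times. In TPM the sign of PSMF1 turned at 3 h (0.029) and on average (0.011). Normalized counts and TPM differ by the apparent length defined above, so these results are not independent. For PSMF1 that length differed by -0.174 on average after the second centring. Why it differed was not tested.

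Apparent length depended on centring: uncentred, 0 members passed at 0 h (median 0.061) and 2 on average (median -0.017, PSMB5 -0.007), and with the centring added after seeing the data 1 (0.016) and 6 (0.006). As first centred and fitted on only the 0 h groups, 8 passed at 0 h. Averaged comparisons use all groups, so that alternative was not run for them. Other pseudocounts and filters kept each count of members within 1.5 times.

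Leaving out each library gave 6 to 15 called members at 0 h (medians 0.022 to 0.081), 18 to 27 at 3 h (-0.17 to -0.05), 24 to 30 at 6 h (-0.287 to -0.19) and 30 to 31 on average (-0.121 to -0.059). Over 6 h it gave 34 to 37 in si-CPSF6 cells (0.377 to 0.475) and 38 to 41 in si-NC cells (0.72 to 0.798), and for the interaction 11 to 21 (-0.32 to -0.183). For apparent length as first centred it gave 15 to 32 at 0 h (0.084 to 0.097), lowest without replicate 1 of si-CPSF6 or replicate 2 of si-NC at 0 h. On average it gave 30 to 35 (0.065 to 0.072). With the second centring no library was left out. With 2 libraries per group, small differences are not detectable.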
